A study of Mus musculus with 4 samples.

Results

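Matrix-binding integrins are the receptors with which epithelial cells hold on to collagen, laminin and fibronectin. The 9 genes described here encode subunits of such receptors: Itga1, Itga2, Itga3, Itga5, Itga6, Itga9, Itgb1, Itgb4 and Itgb5. They were taken by name from a table of 50766 genes that lists 26 integrin subunit genes, and they were chosen with their levels per cell class and treatment already known. For that reason their differences between the treatment groups are given as descriptions, with no p-value. All 9 had counts in every library.

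The cells came from the livers of 4 mice of the genotype Sox9EGFP and are labelled as biliary epithelial cells (BECs), which form the lining of bile ducts. In 2 mice the bile duct had been ligated (BDL) and 2 mice had sham surgery, in each case 7 days earlier. All 4 mice carry the same genotype label. The labels do not say how the cells were isolated or give the age and sex of the mice. Each mouse gave 1 library, so n = 2 per group.

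An integrin is a pair of an alpha and a beta subunit, and the pair sets what it binds. The beta subunit encoded by Itgb1 is shared by many alpha subunits, whereas that of Itgb4 pairs with that of Itga6 and anchors epithelial cells to laminin at hemidesmosomes. Bile duct epithelium rests on a basement membrane of laminin and collagen IV, and ductules that expand after bile duct obstruction grow into matrix laid down by portal fibroblasts and stellate cells.

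The libraries were split-pool single-cell libraries of 10024577 to 33809650 transcript counts (unique molecular identifiers, UMIs), over 2089 to 4065 cells. The cell table deposited with sham replicate 2 calls that library BDL, and the table of BDL replicate 2 calls its library sham. The other 2 tables match their labels, and groups below follow the labels. In clustering, 33.6%, 28.5%, 25.7% and 10.9% of the BEC-like cells of sham replicate 2 lay in clusters 0, 3, 4 and 6, beside 41.0%, 19.7%, 19.1% and 17.8% of those of sham replicate 1 and at most 0.912% in each for the BDL mice. No cell barcode was shared between libraries. BEC-like cells made up 91.8% and 81.5% of the cells in the sham mice and 94.8% and 94.5% in the BDL mice, with all 11 biliary markers detected in each library. Their median depth was 3297 and 2760 UMIs per cell in the sham mice and 7126 and 7873 in the BDL mice. Mesenchymal-like cells numbered 188 and 417 in sham and 71 and 132 in BDL. Endothelial-like (215 cells in all), hepatocyte-like (81) and macrophage-like (49) cells were too few to compare between groups.

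In BEC-like cells the collagen receptor gene Itga2 stood out, with a mean level 10.2 times higher in the BDL than in the sham mice, while Itga9 was lower in the BDL mice. Itga1, Itga3, Itgb1 and Itgb4 were moderately higher in the BDL mice, Itga6 and Itgb5 differed little, and Itga5 overlapped between the groups. Levels are CPM, the share of a gene in the summed UMIs of a library's BEC-like cells on a fixed total, scaled by TMM in edgeR. Differences are log2 fold changes of BDL against sham with standard errors (SE). Each SE was derived as the absolute log2 fold change divided by the square root of edgeR's quasi-likelihood F statistic.

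Among the collagen receptor subunits, Itga2 encodes the alpha subunit that joins with that of Itgb1 in a receptor for fibrillar collagen. Its level in BEC-like cells was 118 CPM in sham replicate 1, 193 in sham replicate 2, 1445 in BDL replicate 1 and 1711 in BDL replicate 2. Both BDL libraries lay far above both sham libraries, with a log2 fold change of 3.35 (SE 0.25). Itga1 encodes an alpha subunit with a preference for collagen IV. It stood at 17.9 and 18.1 CPM in the sham mice and at 37.4 and 32.6 in the BDL mice, a log2 fold change of 0.95 (SE 0.14). The groups did not overlap for either gene.

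Itga1 and Itga2 are neighbours on chromosome 13, with no other protein-coding gene between them except Pelo, which lies inside Itga1. Their upstream sequences are shown because these adjoining genes were both higher in the BDL mice, and that of Itga3, on chromosome 11, is shown beside them as another alpha subunit gene that was higher. Each is the 250 bases before the transcript start in RefSeq, on build GRCm38.p6, written 5′ to 3′ on the gene's own strand, with capitals marking matches to the motifs searched.
Itga2 (chr13:114932101-114932350, minus strand): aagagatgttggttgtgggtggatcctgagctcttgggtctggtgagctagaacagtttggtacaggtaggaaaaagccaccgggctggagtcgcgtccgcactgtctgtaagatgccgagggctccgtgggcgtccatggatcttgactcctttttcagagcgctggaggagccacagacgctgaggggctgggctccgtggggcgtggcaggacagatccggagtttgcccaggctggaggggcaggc
Itga1 (chr13:115101965-115102214, minus strand): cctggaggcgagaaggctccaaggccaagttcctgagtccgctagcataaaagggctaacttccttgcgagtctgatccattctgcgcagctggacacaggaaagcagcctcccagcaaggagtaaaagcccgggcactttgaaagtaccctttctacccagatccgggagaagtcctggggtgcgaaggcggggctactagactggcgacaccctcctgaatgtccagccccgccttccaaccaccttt
Itga3 (chr11:95076715-95076964, minus strand): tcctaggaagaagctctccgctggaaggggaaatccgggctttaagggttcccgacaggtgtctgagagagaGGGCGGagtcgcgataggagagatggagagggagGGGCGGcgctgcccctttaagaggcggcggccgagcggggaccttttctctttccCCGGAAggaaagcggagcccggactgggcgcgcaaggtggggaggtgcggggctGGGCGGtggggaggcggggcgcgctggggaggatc
The motifs were those of AP-1 (TGANTCA), TEAD (GGAATG), the GC box (GGGCGG) and ETS (CCGGAA), searched on both strands, and no matches overlapped. Itga2 and Itga1 held none of these letters in this window. Itga3 held 3 GC boxes, beginning 178, 144 and 35 bases before the start, and 1 ETS match at 89 bases. Of 32851 promoter windows of this length, 6.75% held the AP-1 letters, 12.6% the TEAD letters, 32.7% the GC box and 12.03% the ETS letters. A match is a run of letters and not a shown binding site. RefSeq's table also lists an internal start of Itga3, not shown, and it matched 7 of the 9 genes.

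**Figure D1:**
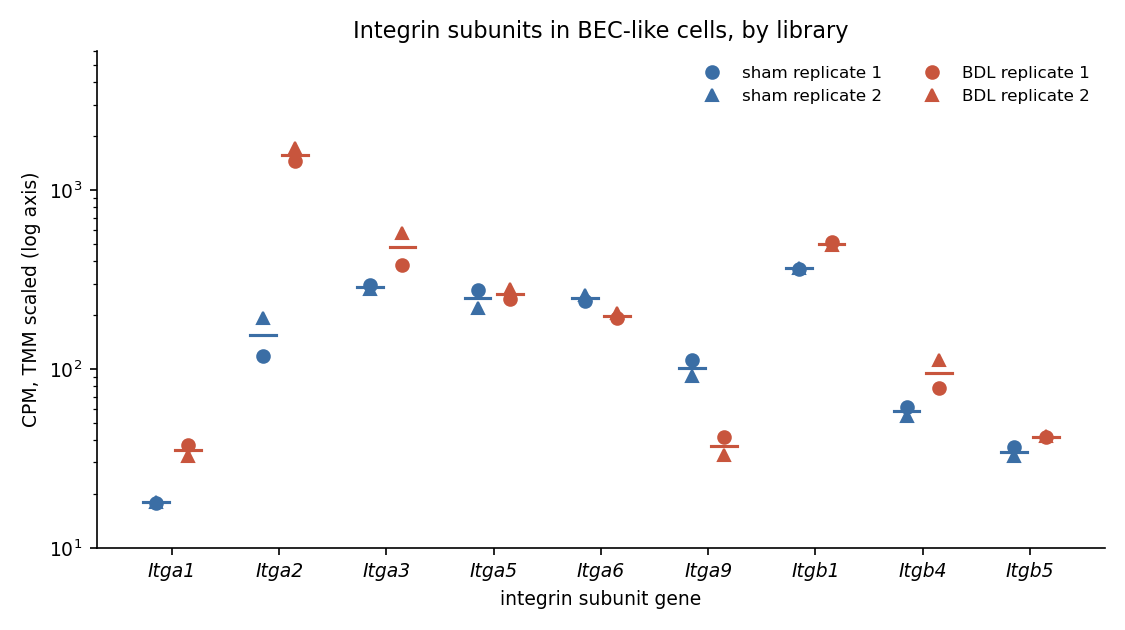
Level of each integrin subunit gene in BEC-like cells (x axis: gene; y axis: TMM-scaled CPM on a log axis), with 1 point per library and a bar at the mean of the 2 libraries of a group. Itga2 lies between 118 and 193 CPM in the sham mice and between 1445 and 1711 in the BDL mice, and Itga9 is the gene with the widest gap in the other direction.

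Among the laminin receptor subunits, Itga3 encodes a partner of the Itgb1 subunit in a receptor for basement membrane laminins. Its level was 296 and 279 CPM in the sham mice and 382 and 577 in the BDL mice, a log2 fold change of 0.74 (SE 0.20). BDL replicate 2 was the high library, and without it the log2 fold change was 0.42. Itgb4, which encodes the hemidesmosome beta subunit with a long cytoplasmic tail, stood at 61.6 and 54.6 CPM in sham and at 77.9 and 112 in BDL. Its log2 fold change was 0.71 (SE 0.19), or 0.43 without BDL replicate 2, again the higher of the BDL mice. Itga6, whose product pairs with either of these beta subunits, went the other way, with 239 and 258 CPM in sham against 193 and 205 in BDL. The groups did not overlap, but the log2 fold change was only -0.32 (SE 0.11). Itga6 was not called, though it was called lower with a filter of at least 10 CPM in 2 libraries and within sublibraries 3 and 7. As the gene was picked on this contrast, nothing is read from these calls.

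Itga5 encodes the alpha subunit of the main fibronectin receptor. It gave 278, 220, 246 and 281 CPM in sham replicates 1 and 2 and BDL replicates 1 and 2, so the groups overlapped, and the log2 fold change was 0.08 (SE 0.15). Itga9 encodes an alpha subunit of a receptor for tenascin, osteopontin and VCAM1. Its level was 112 and 91.0 CPM in the sham mice and 41.4 and 32.9 in the BDL mice, a log2 fold change of -1.46 (SE 0.17). Both BDL libraries were below both sham libraries, and the means differed by a factor of 0.365.

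The common beta subunit gene Itgb1 was at 361 and 367 CPM in sham and 510 and 493 in BDL, with a log2 fold change of 0.46 (SE 0.11). The replicates of a group lay close together, and the groups did not overlap. Itgb5, whose product joins with that of Itgav in a vitronectin receptor, was at 36.4 and 32.6 CPM in sham and 41.6 and 42.1 in BDL, a log2 fold change of 0.28 (SE 0.12).

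Over all 16054 genes, edgeR's quasi-likelihood test called 26.9% at a Benjamini-Hochberg adjusted p under 0.05 (14.1% higher and 12.8% lower in the BDL mice), and 68.7% had groups that did not overlap. Of the 9 integrin genes 6 were called, Itga1, Itga2, Itga3, Itgb1 and Itgb4 as higher and Itga9 as lower, and 8 did not overlap. Since these genes were picked on this contrast, nothing is read from those counts, or from the medians and calls that follow in this paragraph. The median log2 fold change was 0.46 over the 9 genes and -0.02 over all genes tested. Without sham replicate 1, or without sham replicate 2, only Itga1, Itga2 and Itga9 were called. Without either BDL library all 6 were.

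Some of these differences were much the same in the pair of libraries whose label and cell table match and some were smaller. Between sham replicate 1 and BDL replicate 1 alone, with no test, the log2 difference was 3.52 for Itga2, 0.97 for Itga1, -1.54 for Itga9 and 0.40 for Itgb1. It was 0.27 for Itga3 and 0.24 for Itgb4, both smaller than in the 4 libraries together. Itga6 gave -0.41, Itgb5 0.10 and Itga5 -0.27 in this pair, in which the median over all genes was -0.14. Unlike those of the 4 libraries, the values of this pair, here and below, are without TMM scaling. In the fit of 4 libraries the TMM factors were 1.06 for sham replicate 1 and 0.992 for BDL replicate 1. Each library was spread over 8 sublibraries, read from the suffix of the cell barcodes in the cell tables. They hold cells of the same 4 mice and are not further replicates. Within single sublibraries the log2 fold change ranged from 3.03 to 3.48 for Itga2, from -1.83 to -1.07 for Itga9, from 0.59 to 2.07 for Itga1, from 0.39 to 0.86 for Itga3, from 0.32 to 0.48 for Itgb1 and from 0.26 to 0.96 for Itgb4. Itga6 stayed below 0 in all 8, from -0.52 to -0.22, whereas Itga5 (-0.13 to 0.14) and Itgb5 (-0.10 to 0.50 in the 7 sublibraries where it was tested) fell on both sides.

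Markers of other cell types in the BEC-like sums also differed between the groups. The summed level of 10 hepatocyte markers, all 10 with counts in each library, was 1334 and 1349 CPM in the sham mice and 227 and 172 in the BDL mice, led by Alb in sham and by Apob in BDL. The 11 mesenchymal markers, again all detected, summed to 105.4 and 105.0 CPM in sham and to 17.7 and 31.5 in BDL, most of it Reln in sham. The 9 endothelial markers summed to 49.7 and 50.7 against 25.6 and 13.4 CPM, and the 10 macrophage markers to 43.0 to 45.0 CPM in all 4 libraries, with 4, 3, 2 and 0 of them at 0. The 5 mesothelial markers went the other way, at 15.9 and 27.5 CPM in sham and 31.0 and 58.0 in BDL, most of it Msln. In BEC-like cells with no UMI of the mesenchymal, endothelial and immune markers, the log2 fold change was 3.42 for Itga2, -1.41 for Itga9 and 0.88 for Itga1. The part of hepatocyte marker levels in these results was not tested.

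The share of BEC-like cells with an Itga2 UMI gives the same picture per cell. With every cell thinned to 1000 UMIs, which left out 85 and 107 sham cells and no BDL cell, Itga2 was seen in 7.68% (exact 95% interval 6.67 to 8.78) and 9.37% (8.26 to 10.6) of sham cells. The BDL libraries gave 58.5% (56.3 to 60.7) and 66.5% (65.0 to 68.0). In mesenchymal-like cells thinned in the same way the share was 4.37% (33 of 756 cells), and in macrophage-like cells it was 2.33% (1 of 43). Itga9 was seen in 9.72% and 8.57% of sham and in 3.90% and 3.60% of BDL cells, against 0 of 73 hepatocyte-like cells, which allows a share of up to 4.93% by the exact interval. Both BDL shares of Itga9 lie under that limit, but the levels from all UMIs are apart: 41.0 CPM (exact Poisson 95% interval 37.8 to 44.4) and 32.6 (30.7 to 34.6) in BEC-like cells of the BDL mice against 6.49 (1.34 to 18.96) in hepatocyte-like cells. Without thinning, Itga9 was seen in 26.2% and 19.7% of sham and 21.5% and 18.5% of BDL cells, where the deeper BDL libraries overlapped the sham mice. Unthinned, Itga2 was seen in 16.0% and 16.1% of sham and 85.9% and 92.5% of BDL cells. These intervals cover counting error only.

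The 9 genes divided among the cell classes along a line between epithelium and stroma. Itga2, Itga3, Itga6 and Itgb4 were high in BEC-like cells and low in mesenchymal-like cells, whereas Itga1, Itga9 and Itgb5 were high in mesenchymal-like cells. Itga5 and Itgb1 were well expressed in both. Here levels are CPM of all UMIs of a class without TMM scaling, and genes are not compared with each other. The endothelial-like, hepatocyte-like and macrophage-like values pool libraries that could differ severalfold on few UMIs, so the places of these 3 classes in any order are not firm.

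Itga2 was at 1563 CPM in BEC-like cells of the BDL mice (mean of 2), 236 in all hepatocyte-like cells, 154 in BEC-like cells of the sham mice and 45.1 to 87.0 in the remaining classes. The hepatocyte-like value rests on 109 UMIs in 19 of 81 cells, and 54 of them came from 2 cells of BDL replicate 1, so its place in that order is not firm. The hepatocyte-like cluster also carried 5620 CPM of the biliary gene Spp1, close to the 4998 CPM of BEC-like cells, but only 36.8 CPM of Krt19 against 509. Itga3 was at 475 and 290 CPM in BEC-like cells of the BDL and sham libraries, at 162 in macrophage-like cells and at 32.2 to 80.6 elsewhere. Itga6 was at 249 CPM in BEC-like sham cells, 197 in BEC-like BDL cells and 20.3 to 24.1 in mesenchymal-like cells. Endothelial-like cells carried 80.0 and 117 CPM of Itga6 in sham and 172 and 206 in BDL, and macrophage-like cells a pooled 128. The counting interval of macrophage-like cells (77.2 to 200.2 CPM) overlapped those of the endothelial-like and hepatocyte-like cells, and 12 of its 19 UMIs came from BDL replicate 1 (267 CPM, against 32.3 in BDL replicate 2). Itgb4 was at 94.2 and 58.6 CPM in BEC-like BDL and sham cells and at a pooled 50.4 in endothelial-like cells. Of the 20 endothelial-like UMIs of Itgb4 15 came from BDL replicate 2 (114 CPM), against 0, 27.5 and 17.2 CPM in sham replicates 1 and 2 and BDL replicate 1. No UMI of Itgb4 was found in the 49 macrophage-like cells.

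The level in mesenchymal-like cells as a share of that in BEC-like cells of the same library was set beside the same ratio for the 11 biliary markers. In sham replicate 1 the markers gave 1.44% to 9.64%, and Itga2 gave 28.8%, Itgb4 23.4%, Itga3 11.95% and Itga6 4.39%. In sham replicate 2 the markers gave 11.0% to 22.6%, and Itga2 gave 29.4%, Itgb4 18.4%, Itga3 17.0% and Itga6 11.97%. Itga2 was thus above the range of the markers in both sham mice, Itgb4 and Itga3 only in replicate 1, and Itga6 in neither. In BDL replicates 1 and 2 the markers gave 1.14% to 12.9% and 1.72% to 17.5%, and all 4 integrin genes lay within those ranges, at 3.13% and 7.62% for Itga2. For Itga1 the ratio was 1447% and 2047% in sham replicates 1 and 2 and 914% and 706% in BDL replicates 1 and 2. For Itga9 it was 358% and 572% in sham and 897% and 959% in BDL. It was 320% to 468% for Itgb5 and 130% to 166% for Itgb1 over the 4 libraries. Only for Itga5 did it lie on both sides of equality, at 61.2% and 99.9% in sham and 137% and 213% in BDL.

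Itga1 was at 314 CPM in mesenchymal-like cells of the sham mice and 283 in those of the BDL mice, at 108 in endothelial-like cells and at 34.7 and 18.1 in BEC-like BDL and sham cells. When all cells of a library were summed without regard to class, its log2 fold change turned to -0.17, while mesenchymal-like cells, which had the highest level, made up 6.57% and 13.1% of the sham and 3.41% and 3.25% of the BDL mice. Itga9 was at 461 CPM in mesenchymal-like sham cells, 340 in mesenchymal-like BDL and 333 in endothelial-like cells, and lower in BEC-like cells at 103 (sham) and 36.8 (BDL). Its pooled level of 378 CPM in macrophage-like cells joined 601 and 468 CPM in the BDL mice (12 and 21 cells) with no UMI in the 16 cells of the sham mice, so that class has no settled place in the order. Itgb5 was at 188 and 123 CPM in mesenchymal-like BDL and sham cells and at 41.5 and 34.8 in BEC-like cells. Macrophage-like cells, at a pooled 121 CPM of Itgb5 from 18 UMIs, were close to mesenchymal-like sham cells. Itgb1 was at 690 and 585 CPM in mesenchymal-like BDL and sham cells and at 497 and 366 in BEC-like cells, and Itga5 at 463 and 195 CPM against 260.5 and 252. Hepatocyte-like cells of sham replicate 2 (38 cells) carried 188 CPM of Itgb1 and 48.6 of Itga5, from 27 and 7 UMIs. Those of BDL replicate 1 (7 cells) carried 366 and 146 CPM, and those of BDL replicate 2 (34 cells) 519 and 359. This class was too small to compare between groups.

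**Figure D2:**
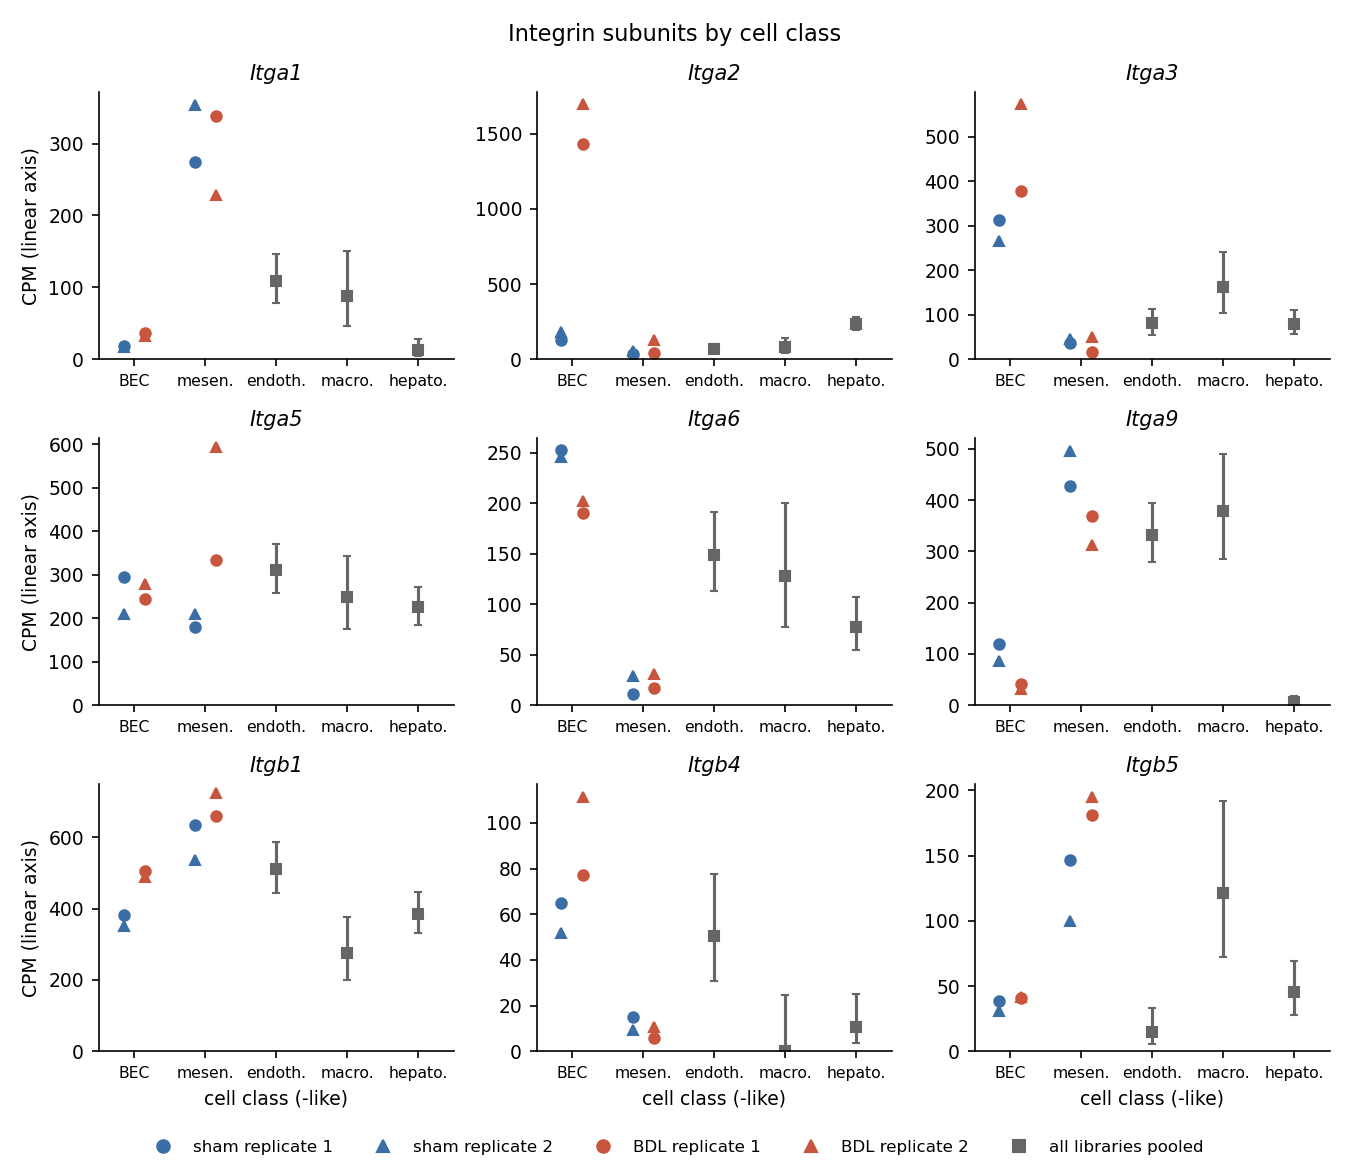
CPM of each integrin subunit gene (y axes, linear, without TMM scaling) by cell class (x axes), with 1 point per library for BEC-like and mesenchymal-like cells and 1 square for all libraries pooled, with its exact Poisson 95% interval, for the 3 smaller classes. Itga2, Itga3, Itga6 and Itgb4 are high in BEC-like cells, and Itga1, Itga9 and Itgb5 in mesenchymal-like cells.

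In mesenchymal-like cells the class level of Itga5 was higher in the BDL mice. In a separate fit of the summed counts of this class 6.9% of 8780 genes were called, and of the 8 integrin genes that passed the filter on low counts (Itgb4 did not) only Itga5 was, as higher. Over all genes 2.63% were called higher, 4.27% lower, and 52.5% did not overlap, against 4 of these 8. Again nothing is read from the counts or from the call of Itga5, since the genes were picked with these levels known. Itga5 was at 181 and 228 CPM in the sham mice and at 347 and 590 in the BDL mice, a log2 fold change of 1.20 (SE 0.29). BDL replicate 2 was the highest, and without it the value was 0.77. The call was lost without BDL replicate 2 and without sham replicate 1 (1.06). In the largest cluster of the class alone the log2 ratio of mean CPM was 1.496, and no test was run there. Itga9 was at 429 and 540 CPM in sham and 384 and 311 in BDL (log2 fold change -0.49, SE 0.24). Itgb5 was at 148 and 108 against 189 and 194 (0.59, SE 0.24), and Itgb1 at 638 and 583 against 686 and 719 (0.20, SE 0.22). Without 1 library in turn, the value ran from -0.63 to -0.31 for Itga9, from 0.37 to 0.83 for Itgb5 and from 0.13 to 0.28 for Itgb1. The groups overlapped for Itga1, Itga2, Itga3 and Itga6. Whether the 2 classes differ in their response was not tested.

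The mesenchymal-like class was made of different clusters in the 2 groups. Of 605 sham cells, 425 lay in cluster 8, which was led by Colec10, Fcna and the stellate cell gene Lrat, 34 in cluster 13, led by Fbn2, Col1a1 and Col1a2, and 146 in cluster 14, led by C7 and Igfbp3. Of 203 BDL cells, 48 lay in cluster 8, 152 in cluster 13 and 3 in cluster 14. Itga1, which overlapped between the groups over the class, was higher in both BDL mice within clusters 8 and 13, at 564 and 462 CPM against 357 and 427 in cluster 8 and at 249 and 196 against 43.3 and 67.0 in cluster 13. Within cluster 8, Itga5 was at 100.0 and 130 CPM in sham and at 306 and 343 in BDL cells. Within cluster 13 it was at 556 and 784 CPM in sham (18 and 16 cells) and at 345 and 629 in BDL, so the groups overlapped there. Itga9 was at 28.9 and 53.6 CPM in the few sham cells of cluster 13 and at 367 and 283 in its BDL cells, whereas within cluster 8 it was at 546 and 598 against 373 and 537. Itgb5 was at 68.6 and 71.0 CPM in sham and 61.1 and 127 in BDL cells of cluster 8, where the groups overlapped, at 173 and 114 against 230.1 and 207 in cluster 13, and at 248 and 178 in the sham cells of cluster 14. The class values of Itga1, Itga5, Itga9 and Itgb5 therefore joined unlike clusters.

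BEC-like cells themselves fell into clusters that the sham and BDL libraries seldom shared. Clusters 0, 3, 4 and 6 held most sham cells, and clusters 1, 2, 5, 7, 9, 10 and 11 most BDL cells. The clusters were built from the same cells, with 3 of the 9 integrin genes among the 2000 variable genes used, so their levels are a description.

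Itga2 varied widely among clusters within a group. In the sham livers it was at 23.5 and 24.7 CPM in cluster 3 (replicates 1 and 2), at 46.1 and 45.0 in cluster 0 and at 39.3 and 45.9 in cluster 6. In cluster 4, which held 19.1% and 25.7% of the sham BEC-like cells and was led by Car4, Sgcd, Tmeff2 and Tff2, it was at 439 and 500 CPM. Cluster 4 was thus the sham cluster with high Itga2, at 18.7 and 20.2 times the level of cluster 3. In the BDL livers Itga2 ran from 285 and 252 CPM in cluster 7 (led by Wnt9a, Ajuba and Mcam) to 2243 and 2260 in cluster 2, which was led by Nos2 and Ccl20. Clusters 5 and 9 were near that top, with 1884 and 2123 CPM in cluster 5 and 2131 and 1997 in cluster 9. The lowest BDL cluster lay above sham clusters 0, 3 and 6 and below sham cluster 4. The few sham cells that clustered with BDL cells in cluster 5 (19 cells) carried 1984 CPM of Itga2 and those in cluster 9 (13 cells) 1546 CPM, whereas those in cluster 7 (22 cells) carried 54.5. In clusters 1, 2, 10 and 11, with 3, 5, 8 and 7 sham cells, the sham cells carried 103, 882, 34.2 and 352 CPM of Itga2, less than the 1282, 2255, 750.2 and 1704 CPM of the BDL cells there.

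Itga9 ran the opposite way across the same clusters. In sham cells it was lowest in cluster 4, at 20.9 and 12.4 CPM, and highest in clusters 3 and 6, at 161 and 143 and at 203 and 135 CPM. In BDL cells it was lowest in cluster 9, which was led by Dmbt1, Duox2 and Anxa8, at 5.69 and 4.56 CPM, and highest in cluster 10 at 85.7 and 64.9 CPM. Over 22 sums of a library and a cluster, Pearson's r between log2 levels of Itga2 and Itga9 was -0.81, and it was -0.97 over the 8 sham and -0.68 over the 14 BDL sums. Sums from the same library share its depth and its mouse, so these are descriptions with no p-value.

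**Figure D3:**
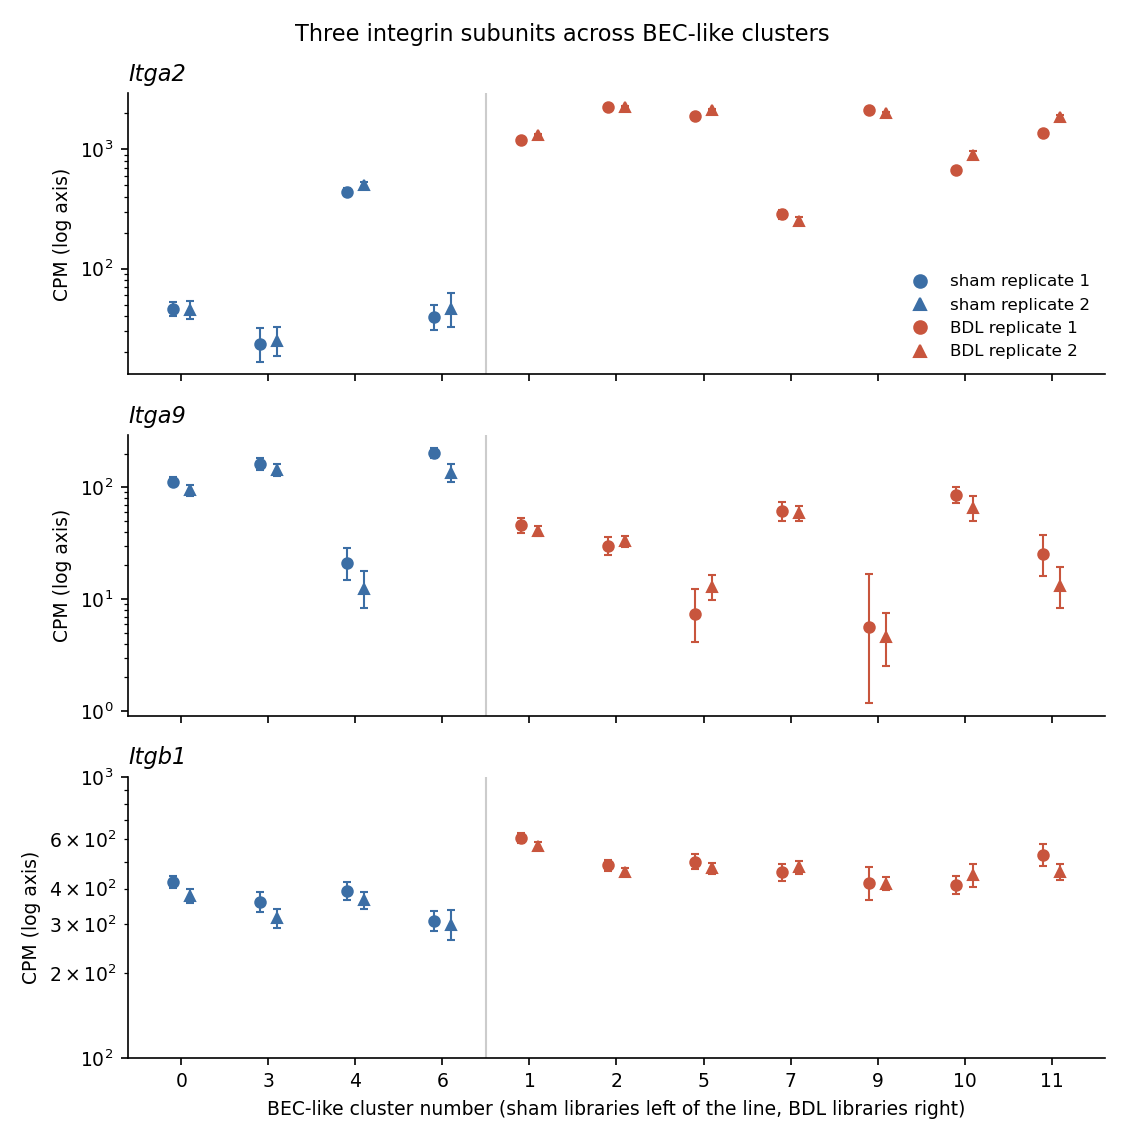
CPM of Itga2, Itga9 and Itgb1 (y axes, log scale) in the BEC-like clusters with at least 50 cells of a library (x axis: cluster number, sham libraries left of the line and BDL libraries right). Points are libraries and bars are exact Poisson 95% intervals; Itga2 is high and Itga9 low in sham cluster 4, and Itgb1 varies little.

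The other genes varied less across clusters. Itga3 shared the peak of Itga2 in cluster 4 of the sham livers, at 550 and 476 CPM against 155 and 134 in cluster 3, and in cluster 2 of the BDL livers, at 497 and 685. Among the BDL clusters with at least 50 cells of a library, Itga6 was highest in cluster 9, at 256 and 282 CPM. It was lowest there in cluster 2, at 139 and 141, the BDL cluster where Itga2 was highest. Among such sham clusters Itga6 was highest in cluster 0, at 301 and 278 CPM. The level of Itgb1 in its highest cluster was 1.27 to 1.47 times that in its lowest within each library. The same ratio was 1.45 to 1.72 for Itgb4, 1.45 to 1.95 for Itga1, 1.79 to 2.23 for Itga5, 1.27 to 2.01 for Itga6 and 1.42 to 3.09 for Itgb5. Across the 22 sums r between Itga2 and Itgb1 was 0.73, but it was 0.38 over the sham and 0.03 over the BDL sums. Between Itga3 and Itgb1 it was 0.68 (0.74 in sham, 0.36 in BDL), and between Itga5 and Itgb1 0.40 (0.63 and 0.43). Between the hemidesmosome partners Itga6 and Itgb4 it was -0.13, with opposite signs within the groups, -0.42 in sham and 0.39 in BDL.

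Genes with the most similar pattern were sought over 28 sums of a library and a cluster with at least 50 cells, among 6680 genes of at least 20 CPM. These sums came from BEC-like, mesenchymal-like and endothelial-like clusters of both groups. Differences between classes and between groups therefore enter these r values, which are descriptions. For Itga2 these were Itgb6 (r = 0.97), the beta subunit of a receptor that activates TGF-beta, then Gsap (0.97) and the neutrophil chemokine gene Cxcl5 (0.96). For Itga3 they were Tspan14, a tetraspanin gene, Rad54l2 and B4galt6, each at 0.96. For Itga1 they were Slc43a3 (0.96), Nkd1 (0.94) and Chst15 (0.94).

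Cycling cells offered a contrast that the choice of genes did not use. BEC-like cells with at least 1 UMI of the proliferation genes Mki67 or Top2a were compared with the others within each library, with the library as a block. By edgeR's quasi-likelihood test 2.59% of 14654 genes were called, 2.18% as higher and 0.409% as lower in cycling cells, and none of the 9 integrin genes was. In that test 2 of the 9 had an unadjusted p under 0.05, beside 1637 of all 14654 genes. DESeq2 called 0 of 9 as well. Itga9 came nearest, with a log2 difference of -0.28 (SE 0.09) and lower levels in cycling cells in 4 of 4 libraries (edgeR adjusted p = 0.109). Itga5 was also lower in 4 of 4 libraries, at -0.14 (SE 0.05, edgeR adjusted p = 0.282), as was Itgb4 at -0.14 (SE 0.08, edgeR adjusted p = 0.505). For Itga2 the difference was 0.07 (SE 0.06, edgeR adjusted p = 0.746), with 155 and 243 CPM in cycling and 117 and 192 in other sham cells, and 1413 and 1731 against 1475 and 1700 in BDL cells. Cycling cells were deeper, with a median of 4468 and 3562.5 UMIs against 3231 and 2729 in sham and 7655 and 8793 against 6903 and 7595 in BDL. With cells thinned to 1000 UMIs, again none of the 9 was called, with log2 differences of -0.75 for Itga9 (edgeR adjusted p = 0.557, from 0.109 to 0.653 over the alternatives, DESeq2 included), -0.21 for Itga5 and -0.36 for Itgb4. The gap between the groups in Itga2 was as large in BEC-like cells with no UMI of either proliferation gene, with a log2 fold change of 3.38.

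The remaining integrin subunit genes were tested in the same fit of BEC-like sums as the rest of the pathway, from lists that were drawn up with earlier results of these data known. Of 17 other subunit genes 15 were tested, of which 2 rose, 2 fell and 11 were not called, beside the 14.1% and 12.8% of all genes. Itgav, the alpha subunit gene of the vitronectin and TGF-beta activating receptors, rose from 1139 and 999 to 3214 and 2953 CPM, a log2 fold change of 1.53 (SE 0.14, edgeR adjusted p = 0.00094). Itgb6, which encodes its epithelial partner, rose from 162 and 131 to 644 and 861 CPM (2.36, SE 0.19, edgeR adjusted p = 0.0006). Itgb8, another partner of the Itgav subunit, was at 146 and 101 against 95.2 and 85.9 CPM (-0.45, SE 0.18, edgeR adjusted p = 0.108). Without 1 library that value ran from -0.16 (without sham replicate 1) to -0.67 (without sham replicate 2), the edgeR adjusted p from 0.028 (without BDL replicate 1) to 0.573, and the matched pair gave -0.71. The leukocyte subunit gene Itgb7 fell from 9.97 and 7.08 to 4.34 and 2.51 CPM (-1.36, SE 0.34, edgeR adjusted p = 0.0288), a call lost without either sham library, and Itgal, also of leukocytes, was the other that fell. The median log2 fold change of the 15 was -0.28. Without sham replicate 1 the list had 2 rises and 0 falls, without sham replicate 2 it had 2 and 1, without BDL replicate 1 it had 2 and 6, and without BDL replicate 2 it had 2 and 3. Itgav and Itgb6 kept their calls without any 1 library, and between the matched pair of libraries alone they gave 1.40 and 1.90.

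Itgav and Itgb6 were close to Itga2 in their pattern over the clusters. Over the 22 sums r was 0.94 between Itga2 and Itgav (0.84 in sham, 0.88 in BDL), 0.98 between Itga2 and Itgb6 (0.95 in each group) and 0.92 between Itgav and Itgb6 (0.80 in each group). Itgb6 stood at 551 and 323 CPM in sham cluster 4 and at 42.1 and 24.3 in sham cluster 3. Between Itgav and Itgb5 r was 0.04 (-0.11 in sham, -0.36 in BDL).

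Inside the cell, integrin tails connect to actin through talin, kindlin, the ILK complex and focal adhesion kinase. Of 26 genes of this adhesion complex 9 rose, 3 fell and 14 were not called, beside 14.1% and 12.8% of all genes, with a median log2 fold change of 0.31; those that fell were Tns1, Parvb and Kank2. Actn1, the actin crosslinker alpha-actinin, rose from 398 and 297 to 1113 and 1402 CPM (1.85, SE 0.19, edgeR adjusted p = 0.00136). Tns3, a tensin gene, rose from 327 and 277 to 624 and 730 CPM (1.16, SE 0.14, edgeR adjusted p = 0.00256), and Ilk, the integrin-linked kinase gene, from 19.9 and 21.6 to 45.0 and 59.8 CPM (1.34, SE 0.17, edgeR adjusted p = 0.00304). Ptk2, which encodes focal adhesion kinase, rose from 121 and 114 to 172 and 201 CPM (0.67, SE 0.12, edgeR adjusted p = 0.0107), and the talin gene Tln1 from 123 and 124 to 163 and 172 CPM (0.45, SE 0.10, edgeR adjusted p = 0.0233). Both of these calls were lost without sham replicate 1 and without sham replicate 2, and that of Tln1 also when all cells were summed. Without these libraries in turn the list gave 5 rises and 0 falls and 5 rises and 1 fall. The list gave 13 and 4 without BDL replicate 1 and 9 and 2 without BDL replicate 2.

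Hemidesmosomes link the integrin of Itga6 and Itgb4 to keratin through plectin and BPAG1. Of 4 further hemidesmosome genes 3 rose and 1, Col17a1, was not called, beside 14.1% and 12.8% of all genes. Dst, the gene of BPAG1, rose from 274 and 299 to 430 and 491 CPM (0.69, SE 0.12, edgeR adjusted p = 0.00963), and the tetraspanin gene Cd151 from 33.2 and 41.6 to 53.7 and 56.7 (0.56, SE 0.14, edgeR adjusted p = 0.0305). Plec, the plectin gene, rose from 184 and 222 to 264 and 300.0 CPM (0.47, SE 0.14, edgeR adjusted p = 0.0437). No call was left without sham replicate 1, 1 (Dst) without sham replicate 2 and 2 without BDL replicate 2. The call of Plec was also lost with a filter of 10 CPM and in cells with no UMI of other cell types' markers.

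Ligand genes were measured in the same cells. Of 22 basement membrane genes 11 rose, 2 fell and 9 were not called, beside 14.1% and 12.8% of all genes, with a median log2 fold change of 0.73. Lamb3, a laminin beta chain gene, rose from 14.8 and 22.5 to 74.0 and 83.8 CPM (2.09, SE 0.20, edgeR adjusted p = 0.00118), and the nidogen gene Nid1 from 2.32 and 2.11 to 22.8 and 36.5 CPM (3.74, SE 0.30, edgeR adjusted p = 0.000679). The call of Nid1 was lost when all cells were summed, at a log2 fold change of 0.16. The laminin gamma chain gene Lamc3 fell from 129 and 84.1 to 5.79 and 3.70 CPM (-4.54, SE 0.30, edgeR adjusted p = 0.000404), and the other gene that fell was Col4a3. The counts of rises and falls were 8 and 2 without sham replicate 1, 8 and 1 without sham replicate 2, 13 and 2 without BDL replicate 1 and 11 and 3 without BDL replicate 2.

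Of 15 genes of interstitial and soluble ligands 12 were tested, of which 4 rose, 1 fell and 7 were not called, beside 14.1% and 12.8% of all genes, with a median of 0.35. Thbs1, the thrombospondin gene, rose from 361 and 332 to 1103 and 1231 CPM (1.75, SE 0.13, edgeR adjusted p = 0.000475), and the adhesion molecule gene Vcam1 from 604 and 803 to 2272 and 2179 CPM (1.66, SE 0.17, edgeR adjusted p = 0.00131). Vtn, the vitronectin gene, which hepatocytes express strongly, fell from 11.7 and 10.4 to 0.345 and 0.345 CPM (-4.98, SE 0.30, edgeR adjusted p = 0.00039), while the hepatocyte markers in the same sums differed as given above. Their part in the fall of Vtn was not tested. When all cells were summed without regard to class, the log2 fold change of Vtn was -2.13. The list gave 2 rises without sham replicate 1 and 6 without BDL replicate 1.

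Of 10 lateral partners, membrane proteins that bind integrins side by side, 2 rose, 1 fell and 7 were not called, with a median of 0.13. These counts lie near the 14.1% and 12.8% of all genes. Cd47 rose from 178 and 182 to 332 and 348 CPM (0.92, SE 0.11, edgeR adjusted p = 0.00211), and Slc3a2, which encodes the CD98 heavy chain, from 73.6 and 75.7 to 146 and 131 CPM (0.89, SE 0.11, edgeR adjusted p = 0.00293). Cav1, the caveolin gene, fell from 46.9 and 49.1 to 24.8 and 27.9 CPM (-0.86, SE 0.13, edgeR adjusted p = 0.00501), a call lost without sham replicate 2. Without BDL replicate 1 the list gave 4 rises.

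**Figure D4:**
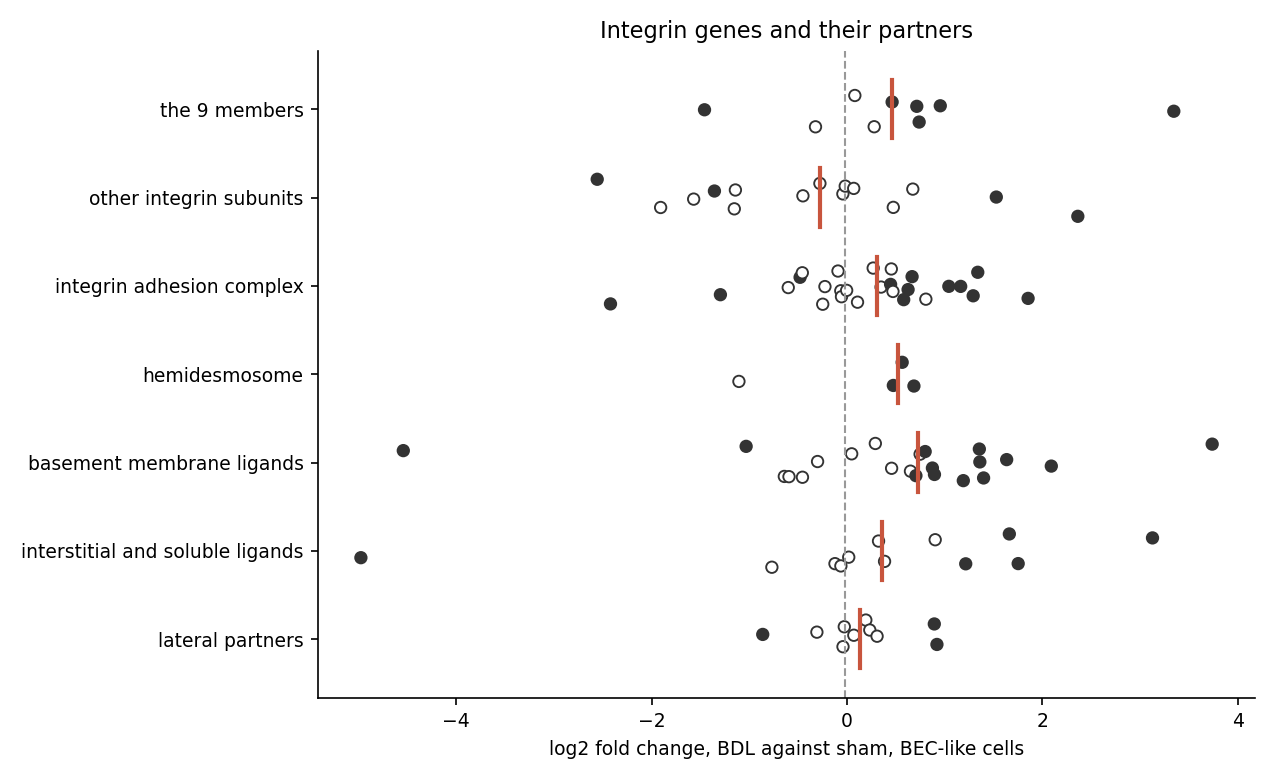
Log2 fold change (x axis) of BDL against sham in BEC-like cells for the 9 integrin genes and the 6 gene lists (rows), with 1 point per gene tested. Filled points were called at an adjusted p under 0.05, the upright bar is the median of a list and the dashed line the median of all genes tested; the medians of the basement membrane list (0.73) and the hemidesmosome list (0.52) lie farthest to the right.

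Several of the 9 genes share genomic ground with others, and no source used here says whether counting took strand into account. Itga2 overlaps the long noncoding gene Gm34845, at 0.387, 0.249, 3.24 and 2.10 CPM in BEC-like cells of sham replicates 1 and 2 and BDL replicates 1 and 2, well under the level of Itga2 itself. Itgb4 overlaps Galk1 (19.6, 15.8, 11.2 and 7.90 CPM in the same order) and B230344G16Rik (3.97 and 3.36 CPM in sham, under that in both BDL mice), which were lower in the BDL mice where Itgb4 was higher. Itga1 overlaps Pelo, Itga5 a microRNA gene, and Itga9 a pseudogene and noncoding genes. Reads that such pairs share cannot be told apart here.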

How the data were processed

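The authors deposited, per sample, a matrix of UMI counts per cell and gene on a reference named mm39refseq per the file headers (build GRCm39 per the submitters' processing notes), with no normalization. The aligner, cell threshold and strand setting are not given in the sources used here. Cells under 500 UMIs (7) or over 20% mitochondrial UMIs (10) of 12211 were left out. Scrublet marked 11 doublets (0.0902%), too few to have worked, and these were removed, leaving 12183 cells. Scanpy 1.11.5 took 2000 variable genes, 30 components and 20 neighbours, and Leiden clustering at resolution 1 gave 21 clusters. For non-biliary classes, a marker passed if seen in at least 5% of a cluster's cells and over 2-fold higher than in all other cells. A cluster of at least 10 cells was named where at least 3 and at least 50% of a class's markers passed. The remaining clusters were named BEC-like where at least 3 biliary markers passed, compared with the non-biliary cells only and without the 50% rule. These rules were set after the data were seen, and 1 cell stayed unnamed.

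Sums per library were fitted with edgeR 4.0.16 (R 4.3.3): TMM, filterByExpr, quasi-likelihood F test, two-sided, threshold 0.05. DESeq2 1.42.0 was an alternative. The fits were tested on simulated data. The members and gene lists were chosen with earlier results of these data known. The genes named are the 9 members, Itgav, Itgb6, Itgb8, Tln1, Ptk2 and Ilk, and up to 3 genes per list with the smallest adjusted p under 0.05, no overlap and at least 5 CPM. For 3 members the 3 genes with the highest Pearson correlation of log2(CPM + 1) were named. Genes that lead clusters, overlap a member or complete a count were chosen after their values were seen. A replicate is 1 mouse, and replicate numbers follow sample order.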

Additional observations from a re-analysis of the deposited data

How the results depend on the processing

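No paired analysis was possible because replicates were numbered only by sample order. In BEC-like cells, 4318 genes were called between BDL and sham. Leaving out 1 library gave 1475 to 6185 genes, and 3 to 6 of the 9 integrin genes against 6. Within sublibraries 1 to 8 the counts were 589, 2365, 1854, 2162, 2045, 1977, 2219 and 1865 genes from fewer cells, with 3, 2 and 3 integrin genes in sublibraries 1, 5 and 8. Without a filter on low counts 62.8% of the calls were higher in BDL, against 52.5%. In mesenchymal-like cells 606 genes were called, 316 by DESeq2, 1129 without a filter on low counts (2 integrin genes against 1) and 39 to 1205 (0 to 2 integrin genes) without 1 library. Between cycling and other cells 379 genes were called, 205 by DESeq2, 94 with cells thinned to 1000 UMIs and 175 to 463 without 1 library. DESeq2 moved the median of all genes to -0.16 in mesenchymal-like cells and to 0.17 in the cycling contrast.

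With cells thinned to 2000 UMIs, Itga2 was seen in 12.6%, 14.0%, 72.3% and 81.5% of BEC-like cells of sham replicates 1 and 2 and BDL replicates 1 and 2, and without thinning in 16.0%, 16.1%, 85.9% and 92.5%. Itga9 was seen in 17.8%, 14.5%, 8.41% and 6.23%, and without thinning in 26.2%, 19.7%, 21.5% and 18.5%.

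Itga1 turned to -0.17 when all cells were summed without class. Within sublibrary 1, Itgb8 turned to 0.36 and Cav1 to 0.22. In the cycling contrast the sign turned where values were near 0: thinning gave -0.16 for Itga2, -0.11 for Itgb1 and -0.59 for Itgb5, no filter gave -0.016 for Itgb5, and leaving out 1 library gave -0.12 to 0.0019 for Itga3, -0.098 to 0.0065 for Itga6, -0.012 to 0.056 for Itgb1 and -0.051 to 0.16 for Itgb5. The causes were not tested.

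With 2 mice per group, small differences such as those of Itga6 and Itgb5 could not be settled. Sham cells were also much shallower. With sums thinned to the shallowest library 5 integrin genes were called higher and 1 lower, the same genes as in the main fit. Beyond that, the part of cell depth was not tested.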

Other observations

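A small cluster of 27 cells (cluster 18), counted among BEC-like cells by 9 of the 11 biliary markers, was led by Rgs13, St18 and Sh2d6. It carried 436 CPM of Itga9. All 40 UMIs behind that value came from the 9 cells of BDL replicate 2 in it, and the 15 sham cells and the 3 cells of BDL replicate 1 had 0. The value therefore rests on 1 library. Among the BDL clusters with at least 50 cells of a library, Itgb5 was highest in cluster 10, led by Iqch and Ryr1, at 70.5 and 89.8 CPM, where Itga9 was also highest.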
